A study of Homo sapiens with 9 samples.

Results

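The human centromere, kinetochore and spindle checkpoint were followed through 41 genes, matched by symbol to a list of proteins that build these structures. The list was drawn up with earlier results of these data known. Each symbol matched 1 of the 62703 gene identifiers listed, and all 41 genes were among the 17623 genes with enough counts to be tested. The cells were HepG2, an established line from a human hepatocellular carcinoma. Untreated cells were set beside cells given eliglustat, an inhibitor of glucosylceramide synthase, at 20 µM for 72 h or at 30 µM for 72 h, with 3 libraries in each of the 3 groups. The labels give no time or vehicle for the untreated cells. Whether replicate libraries stem from separate cultures is not stated, so the p-values reflect spread between libraries that could be technical only.

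The kinetochore is the protein assembly by which a chromosome is held on the spindle. Its base is chromatin that carries CENP-A, a histone H3 variant, on which an inner network of CENP proteins is built and then the KNL1, MIS12 and NDC80 complexes that bind microtubules. A kinetochore with no microtubule loads checkpoint proteins of the BUB and MAD families and the kinase TTK, and these hold back the anaphase-promoting complex until every chromosome is attached. Most of the genes for these proteins are known to be transcribed mainly in the later phases of the cell cycle in dividing cells, through promoters that often carry a cell cycle homology region (TTTGAA) and CCAAT boxes. In bulk RNA, fewer cells in those phases and less RNA per cell cannot be told apart.

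Counts in genes numbered 21103757 to 26782810 per library, and single members had between 37 counts (MAD1L1) and 8320 counts (CENPF) in a library. Levels are given as CPM, the counts of a gene relative to the scaled total of its library. Changes are log2 ratios ± SE from edgeR's quasi-likelihood fit over all 9 libraries, and a gene is said to have risen, fallen or changed where its Benjamini-Hochberg adjusted p over all genes tested was under 0.05. Control library 1 and library 3 of each dose deviated from their group means together over all genes (correlations of 0.331 to 0.352), and counts without these 3 libraries are given below. The share of records with more than 1 place in the genome was 12.4% to 12.8% in the untreated libraries, 13.3% to 15.5% at 20 µM and 14.8% to 19.4% at 30 µM, and its part in the results was not tested. Of 10 markers of hepatocytes and of HepG2, 10 were detected. Of these, 2 fell and 7 rose at 20 µM, where 16.9% of all genes tested fell and 17.2% rose. At 30 µM 5 fell and 3 rose, where 31.3% of all genes tested fell and 29.5% rose. Markers of other cell types did not all behave alike. Of 5 fibroblast genes, COL1A2 and DCN were at 0 in every library, and the summed level of the list was 1.01 to 1.40 CPM in the untreated libraries, 1.02 to 1.5 CPM at 20 µM and 3.06 to 3.47 CPM at 30 µM, where PDGFRB rose at 30 µM (log2 change 1.82 ± 0.25, adjusted p = 1.58e-07). Of 4 leukocyte genes, PTPRC was at 0 in every library, and the sum was 449.7 to 496 CPM in the untreated libraries, 438 to 474 CPM at 20 µM and 636 to 667 CPM at 30 µM, nearly all of it LYZ, which rose at 30 µM (0.48 ± 0.036, adjusted p = 4.29e-13). Of 4 endothelial genes, KDR had at most 1 count in a library, and the sum was 4.49 to 5.54 CPM in the untreated libraries, 4.82 to 6.34 CPM at 20 µM and 3.96 to 4.83 CPM at 30 µM. There VWF rose at 30 µM (2.57 ± 0.38, adjusted p = 3.99e-07), while PECAM1 and CDH5 fell (-1.21 ± 0.29, adjusted p = 0.000633, and -0.55 ± 0.22, adjusted p = 0.0298). At 20 µM CDH5 rose (0.68 ± 0.20, adjusted p = 0.00677) and PECAM1 fell (-0.90 ± 0.28, adjusted p = 0.0122). The part of these markers in the results was not tested.

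Almost the whole module fell at both doses, and it fell further at the higher dose. At 20 µM, 36 of 41 members fell and 0 rose, where 16.9% of all genes tested fell and 17.2% rose. At 30 µM, 39 of 41 fell and 0 rose, where 31.3% of all genes tested fell and 29.5% rose. The median log2 change of the members was -0.45 at 20 µM, where the median of all genes tested was 0.0087. At 30 µM it was -1.12, where the median of all genes was -0.036. The summed level of the 41 genes was 1795 to 1842 CPM in the untreated libraries, 1291 to 1330.1 CPM at 20 µM and 921 to 933 CPM at 30 µM, with no overlap between the groups. These comparisons share the same 3 untreated libraries, so they are not independent of each other.

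The libraries of the groups were also compared without a model. All 3 libraries at 20 µM were below all 3 untreated libraries for 38 members, where this held for 22.1% of all genes tested. At 30 µM the same held for 39 members, where it held for 33.8% of all genes. The members whose call was missing at 20 µM were CENPC, CENPP, CENPQ, PMF1 and MAD1L1, and at 30 µM they were CENPT and BUB3. Without the 3 libraries that deviated together, 35 members fell at 20 µM and 38 at 30 µM, where 2780 and 5055 of 17674 genes tested fell. The calls lost were those of CENPT and MIS12 at 20 µM (adjusted p = 0.0843 and adjusted p = 0.0854) and of MAD1L1 at 30 µM (adjusted p = 0.0567), and CENPQ gained a call at 20 µM (adjusted p = 0.0123).

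**Figure D1:**
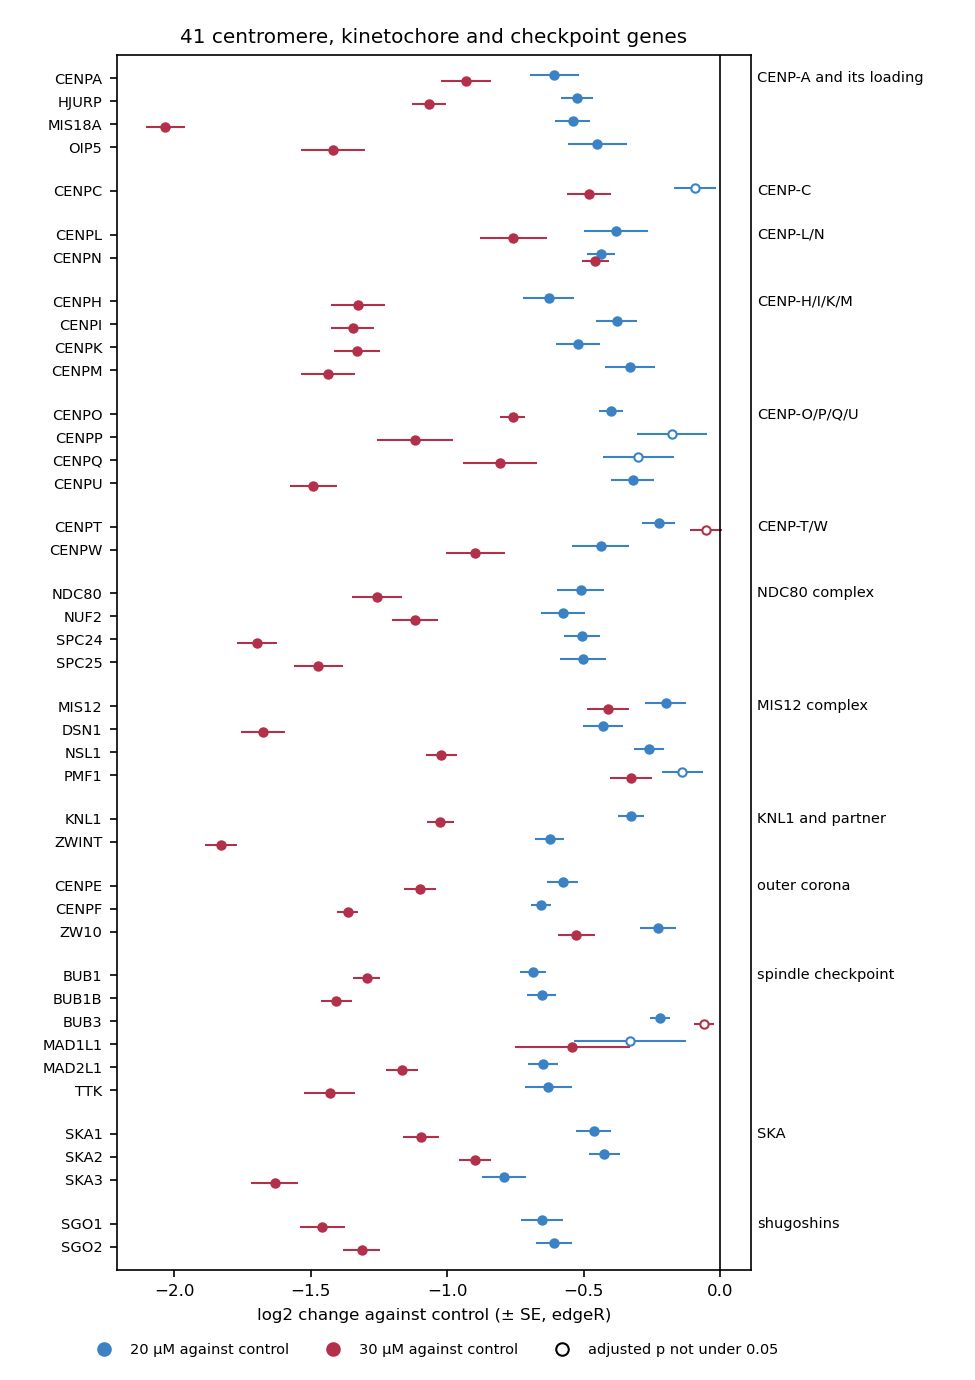
The log2 change against untreated cells (x axis, ± SE from edgeR) of each of the 41 genes (rows, grouped by complex), in blue at 20 µM and in red at 30 µM, with open circles where the adjusted p was not under 0.05. At 30 µM the points run from -2.03 for MIS18A to -0.053 for CENPT, and for every gene but CENPT and BUB3 they lie left of the points at 20 µM, which run from -0.79 for SKA3 to -0.093 for CENPC.

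Set against 20 µM directly, 30 µM gave a further fall in 37 of 41 members and a rise in 2, where 28.9% of all genes tested fell and 28.0% rose. The median difference of the members between the doses was -0.70, where that of all genes was -0.029. All 3 libraries at 30 µM were below all 3 at 20 µM for 35 members, where 31.4% of all genes did so. The 2 genes that were higher at 30 µM than at 20 µM were CENPT and BUB3, and CENPN and MAD1L1 did not pass the test. Without the 3 libraries that deviated together, 35 members were lower and 2 higher at 30 µM than at 20 µM. In that fit 4641 of 17674 genes tested were lower and 4694 higher. The calls lost among the members were those of CENPQ and MIS12 (adjusted p = 0.0700 and adjusted p = 0.257).

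**Figure D2:**
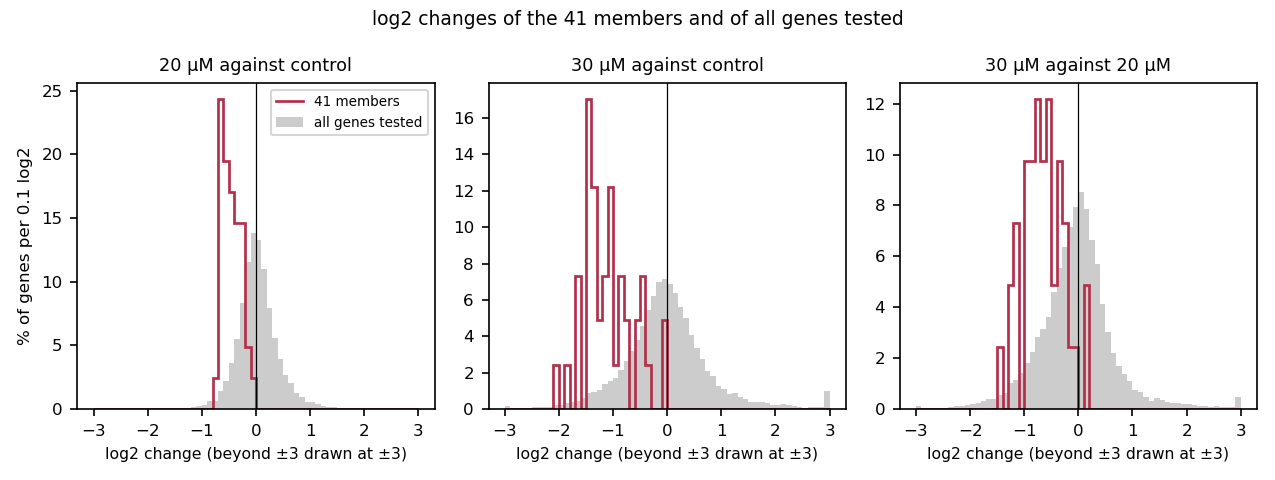
Share of genes (y axis, percent in each step of 0.1) by log2 change (x axis) for the 41 members (red outline) and all 17623 genes tested (grey) in the 3 comparisons. The members' medians were -0.45, -1.12 and -0.70, while the medians of all genes lay within 0.05 of 0.

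Because the members moved together, the stretch around the RefSeq start was read from the RefSeq promoter table (GRCh38.p14) for 34 of the 41 genes. MIS18A, CENPL, CENPH, CENPM, KNL1, BUB3 and TTK had no entry. In some genes, such as CENPA, NUF2, SPC25 and SGO2, the RefSeq start lay well inside the GENCODE 29 gene span. Which start HepG2 cells use was not tested. Over 250 bases before to 50 bases after the start, TTTGAA on either strand stood in 15 of 34 member promoters (44.1%) and in 9.96% of the 11049 promoters of tested genes. CCAAT on either strand stood in 21 of 34 (61.8%) and in 36.9% of all. Both motifs, which can share at most 1 base, stood in 9 of 34 (26.5%) and in 4.27% of all. With the centre of a TTTGAA match within 50 bases of the start, a window chosen after the matches were seen, the shares were 12 of 34 (35.3%) and 2.86%. Among the members, the median log2 change was -0.52 with a TTTGAA match and -0.42 without at 20 µM, and -1.12 with and -1.12 without at 30 µM. Over all 11049 promoters of tested genes, it was -0.054 with and 0.0093 without at 20 µM. At 30 µM it was -0.18 with and -0.011 without over these promoters. Steep changes at 30 µM occurred with a TTTGAA match, as in ZWINT (-1.83) and SKA3 (-1.63), and with none, as in SPC24 (-1.70) and DSN1 (-1.68). Small changes occurred with a match, as in CENPN (-0.46), CENPC (-0.48) and ZW10 (-0.53). They also occurred with none, as in CENPT (-0.053), PMF1 (-0.33) and MIS12 (-0.41). These are matches of letters, not known sites, and no test was made.

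The sequences below show where the match stands in 7 genes, of which CENPN had a small change, and the same stretch in 3 genes with no TTTGAA match. These are DSN1, whose change was steep, MIS12, whose log2 change at 30 µM was -0.41, and CENPT, which did not pass the test at 30 µM. The 10 genes were chosen after matches and changes were seen, to show matches beside small and large changes. Each runs 5′ to 3′ on the gene's strand from 60 bases before the start to 30 bases from it, and capitals mark TTTGAA (or TTCAAA, its reverse complement) and CCAAT (or ATTGG). The stretches are chr2:26785996-26786085 (plus strand) for CENPA, chr18:2571497-2571586 (plus strand) for NDC80, chr2:168890401-168890490 (minus strand) for SPC25 and chr15:40161009-40161098 (plus strand) for BUB1B. Those of the other genes are chr13:21176523-21176612 (minus strand) for SKA3, chr10:56361230-56361319 (minus strand) for ZWINT, chr16:81007154-81007243 (plus strand) for CENPN, chr20:36773734-36773823 (minus strand) for DSN1, chr16:67847664-67847753 (minus strand) for CENPT and chr17:5486314-5486403 (plus strand) for MIS12.
CENPA: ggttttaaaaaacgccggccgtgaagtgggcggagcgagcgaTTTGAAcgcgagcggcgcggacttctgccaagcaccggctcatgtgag
NDC80: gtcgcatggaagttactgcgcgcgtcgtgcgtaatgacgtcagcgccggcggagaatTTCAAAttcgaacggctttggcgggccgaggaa
SPC25: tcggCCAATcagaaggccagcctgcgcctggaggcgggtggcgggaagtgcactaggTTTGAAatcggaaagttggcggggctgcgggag
BUB1B: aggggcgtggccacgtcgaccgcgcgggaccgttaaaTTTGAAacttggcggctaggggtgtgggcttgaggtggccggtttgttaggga
SKA3: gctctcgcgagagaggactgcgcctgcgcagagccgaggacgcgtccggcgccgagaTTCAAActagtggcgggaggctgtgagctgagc
ZWINT: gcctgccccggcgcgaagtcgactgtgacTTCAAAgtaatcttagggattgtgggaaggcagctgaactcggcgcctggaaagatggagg
CENPN: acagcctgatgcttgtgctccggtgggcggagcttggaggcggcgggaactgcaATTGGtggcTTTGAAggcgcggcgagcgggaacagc
DSN1: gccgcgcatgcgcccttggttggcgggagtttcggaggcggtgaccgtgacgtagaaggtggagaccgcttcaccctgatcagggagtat
CENPT: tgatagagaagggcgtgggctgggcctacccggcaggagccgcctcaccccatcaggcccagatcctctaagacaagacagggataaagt
MIS12: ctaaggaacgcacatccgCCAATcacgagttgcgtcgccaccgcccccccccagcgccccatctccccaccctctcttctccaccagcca

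The CENP-A group, which marks and renews the centromere, fell as a whole, with 4 of 4 members lower at each dose and a median change of -1.24 at 30 µM. CENPA, the centromeric histone (chr2:26764289-26801067, GENCODE 29 on GRCh38), had 22.6, 21.5 and 22.6 CPM in the untreated libraries, 15.1, 13.7 and 14.9 CPM at 20 µM and 9.63, 11.8 and 13.5 CPM at 30 µM. The groups did not overlap, and the change was -0.61 ± 0.088 at 20 µM (adjusted p = 1.24e-06) and -0.93 ± 0.091 at 30 µM (adjusted p = 9.55e-11). CENPA was also lower at 30 µM than at 20 µM (-0.32 ± 0.094, adjusted p = 0.00388), but the difference was -0.21 (adjusted p = 0.0664) without library 1 at 30 µM. HJURP, the chaperone that deposits CENP-A, had 58.6, 56.3 and 52.7 CPM in the untreated libraries, 37.0, 41.6 and 38.0 CPM at 20 µM and 28.7, 26.5 and 25.0 CPM at 30 µM. Its libraries were ordered by dose without overlap, with changes of -0.52 ± 0.059 at 20 µM (adjusted p = 8.30e-09) and -1.07 ± 0.061 at 30 µM (adjusted p = 1.19e-16).

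MIS18A (chr21:32268219-32279069), a subunit of the Mis18 complex that prepares centromeres for new CENP-A, showed the largest fall of the 41 genes at 30 µM. It had 35.2, 36.1 and 35.9 CPM in the untreated libraries, 24.3, 25.2 and 24.2 CPM at 20 µM and 8.24, 9.12 and 8.80 CPM at 30 µM. At 30 µM its level was 4.09-fold lower than in untreated cells, and the changes were -0.54 ± 0.063 at 20 µM (adjusted p = 1.89e-08) and -2.03 ± 0.072 at 30 µM (adjusted p = 2.22e-22). OIP5, the other Mis18 subunit measured, had 10.2, 11.3 and 11.3 CPM in the untreated libraries, 8.53, 7.35 and 8.0 CPM at 20 µM and 4.21, 3.92 and 4.09 CPM at 30 µM. It too fell without overlap, with changes of -0.45 ± 0.11 at 20 µM (adjusted p = 0.00112) and -1.42 ± 0.12 at 30 µM (adjusted p = 1.59e-12). In GENCODE 29, 38% of the exon bases of OIP5 overlap OIP5-AS1 on the opposite strand, and the strand setting of the counting is not given in the sources used here. Over all 9 libraries OIP5-AS1 held 27857 counts, against 1730 for OIP5.

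Within this group the fall at 30 µM was uneven. Per kilobase of exon, the ratio of MIS18A to CENPA was 1.85 ± 0.0702 in the untreated libraries, 1.94 ± 0.149 at 20 µM and 0.874 ± 0.117 at 30 µM (SD, n = 3), so the libraries at 30 µM lay below all others. The ratio of HJURP to CENPA was 1.3 ± 0.0822 in the untreated libraries, 1.39 ± 0.162 at 20 µM and 1.22 ± 0.296 at 30 µM, and there the 3 groups overlapped. These and the later ratios were chosen after the values were seen and were not tested.

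In the inner network on CENP-A chromatin, the size of the fall differed between members. CENPC, which binds CENP-A nucleosomes and the MIS12 complex, had 26.7, 21.7 and 27.0 CPM in the untreated libraries, 25.0, 23.0 and 23.0 CPM at 20 µM and 18.7, 19.2 and 16.4 CPM at 30 µM. At 20 µM its libraries overlapped the untreated ones (-0.093 ± 0.078, adjusted p = 0.401), and at 30 µM it fell (log2 change -0.48 ± 0.081, adjusted p = 4.75e-06). CENPN, which reads CENP-A nucleosomes with CENPL, had 56.7, 54.5 and 54.0 CPM in the untreated libraries, 40.7, 40.9 and 40.4 CPM at 20 µM and 40.1, 38.5 and 41.7 CPM at 30 µM. CENPN fell at both doses, with changes of -0.44 ± 0.051 at 20 µM (adjusted p = 1.65e-08) and -0.46 ± 0.051 at 30 µM (adjusted p = 1.57e-09). Its libraries at 30 µM overlapped those at 20 µM, and the difference between the doses was -0.020 ± 0.052 (adjusted p = 0.769), or 0.0092 (adjusted p = 0.916) without library 2 at 30 µM. With library size alone as the scaling, which moved the median of all genes between the doses to -0.22, that difference was -0.21 and passed the test (adjusted p = 0.000632). In GENCODE 29, 12.8% of its exon bases overlap CMC2 on the opposite strand. CMC2 held 4242 counts over all 9 libraries, against 10148 for CENPN.

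CENPL had 10.1, 9.87 and 13.3 CPM in the untreated libraries, 8.12, 9.61 and 7.84 CPM at 20 µM and 6.94, 5.98 and 6.77 CPM at 30 µM. Its changes were -0.38 ± 0.12 at 20 µM (adjusted p = 0.0107) and -0.76 ± 0.12 at 30 µM (adjusted p = 2.14e-06), and the groups did not overlap. The call at 20 µM was lost without control library 3, at -0.23 (adjusted p = 0.182), and without library 3 at 20 µM, at -0.33 (adjusted p = 0.0572). Its difference between the doses, -0.38 ± 0.13 (adjusted p = 0.0108), became -0.28 (adjusted p = 0.0822) without library 2 at 20 µM and -0.31 (adjusted p = 0.0651) without library 2 at 30 µM.

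The CENP-H/I/K/M subcomplex, a core of the inner network, fell in all 4 members at both doses. Their changes lay between -0.63 and -0.33 at 20 µM and, closer together, between -1.44 and -1.33 at 30 µM. CENPM had 16.9, 19.9 and 18.9 CPM in the untreated libraries, 15.8, 15.4 and 13.0 CPM at 20 µM and 7.18, 7.18 and 6.19 CPM at 30 µM, with changes of -0.33 ± 0.091 at 20 µM (adjusted p = 0.00445) and -1.44 ± 0.10 at 30 µM (adjusted p = 2.15e-14). CENPH had 18.1, 17.3 and 15.6 CPM in the untreated libraries, 11.0, 10.6 and 11.5 CPM at 20 µM and 6.67, 6.31 and 7.35 CPM at 30 µM, with changes of -0.63 ± 0.092 at 20 µM (adjusted p = 1.35e-06) and -1.33 ± 0.098 at 30 µM (adjusted p = 9.51e-14). The largest change was that of CENPH at 20 µM and that of CENPM at 30 µM, and at 20 µM CENPM had the smallest. CENPI changed by -0.38 ± 0.074 at 20 µM (adjusted p = 9.30e-05) and -1.35 ± 0.080 at 30 µM (adjusted p = 2.86e-16), and CENPK by -0.52 ± 0.080 at 20 µM (adjusted p = 2.92e-06) and -1.33 ± 0.085 at 30 µM (adjusted p = 2.57e-15).

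Of the CENP-O/P/Q/U subcomplex, which helps to hold the kinase PLK1 at kinetochores through CENPU, 2 of 4 members fell at 20 µM and 4 of 4 at 30 µM. CENPU had 22.3, 21.1 and 22.1 CPM in the untreated libraries, 16.4, 17.0 and 18.9 CPM at 20 µM and 7.41, 7.96 and 7.89 CPM at 30 µM. Its changes were -0.32 ± 0.078 at 20 µM (adjusted p = 0.00132) and -1.49 ± 0.086 at 30 µM (adjusted p = 1.46e-16), the steepest of the subcomplex at 30 µM. CENPO had 83.2, 88.1 and 84.9 CPM in the untreated libraries, 64.2, 66.1 and 63.6 CPM at 20 µM and 49.4, 50.8 and 50.9 CPM at 30 µM. It changed by -0.40 ± 0.044 at 20 µM (adjusted p = 5.22e-09) and -0.76 ± 0.045 at 30 µM (adjusted p = 2.73e-16), and 27% of its exon bases overlap ADCY3 on the opposite strand, which itself held 22 counts over all 9 libraries.

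CENPP and CENPQ did not pass the test at 20 µM, with changes of -0.18 ± 0.13 (adjusted p = 0.322) and -0.30 ± 0.13 (adjusted p = 0.0786), although their libraries at 20 µM lay below all untreated ones. CENPQ passed without library 1 at 20 µM, at -0.39 (adjusted p = 0.0485), or without library 3 at 20 µM, at -0.39 (adjusted p = 0.0406), and with no low-count filter (adjusted p = 0.0401). At 30 µM both fell, CENPP with a change of -1.12 ± 0.14 (adjusted p = 2.02e-08) and CENPQ with -0.81 ± 0.14 (adjusted p = 1.00e-05). In untreated cells CENPP was the second lowest member per kilobase of exon, and 38% of its exon bases overlap IPPK on the opposite strand. Over all 9 libraries IPPK held 3214 counts, against 1138 for CENPP. CENPQ was lower at 30 µM than at 20 µM, with a difference of -0.51 ± 0.14 (adjusted p = 0.00277) that became -0.33 (adjusted p = 0.0700) without the 3 libraries that deviated together.

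CENPT and CENPW form a histone-fold pair that links the inner network to the NDC80 complex, and their levels changed unequally at 30 µM. CENPT (chr16:67828157-67847811) had 48.1, 43.4 and 41 CPM in the untreated libraries, 36.2, 39.8 and 37.3 CPM at 20 µM and 44.2, 41.6 and 42.0 CPM at 30 µM. All 3 libraries at 20 µM were below the untreated ones (-0.23 ± 0.059, adjusted p = 0.00254), whereas those at 30 µM overlapped them (-0.053 ± 0.059, adjusted p = 0.455). CENPT was higher at 30 µM than at 20 µM, by 0.17 ± 0.059 (adjusted p = 0.0128), with no overlap between the doses. That call was lost without library 1 at 20 µM, at 0.14 (adjusted p = 0.0711), without library 1 at 30 µM, at 0.15 (adjusted p = 0.0651), and with upper-quartile factors, at 0.098 (adjusted p = 0.165). With library size alone as the scaling the difference was -0.020 (adjusted p = 0.798). Without control library 1 the change at 30 µM against untreated cells was 0.014 (adjusted p = 0.866), and without the 3 libraries that deviated together the change at 20 µM was -0.15 (adjusted p = 0.0843).

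CENPW had 13.6, 11.6 and 13.0 CPM in the untreated libraries, 9.14, 8.81 and 10.3 CPM at 20 µM and 6.43, 7.71 and 6.36 CPM at 30 µM. It fell at each dose, with changes of -0.44 ± 0.10 at 20 µM (adjusted p = 0.00109) and -0.90 ± 0.11 at 30 µM (adjusted p = 9.79e-09), and the groups did not overlap. The ratio of CENPW to CENPT per kilobase was 2.01 ± 0.175 in the untreated libraries, 1.74 ± 0.190 at 20 µM and 1.12 ± 0.150 at 30 µM (SD, n = 3), and the libraries at 30 µM lay below all others.

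The NDC80 complex, the main microtubule-binding unit of the outer kinetochore, fell in all 4 subunits at each dose, and no library of one group overlapped another. NDC80 had 21.8, 21.2 and 20.8 CPM in the untreated libraries, 15.2, 13.8 and 15.8 CPM at 20 µM and 9.26, 9.78 and 7.64 CPM at 30 µM. NUF2, its partner in the microtubule-binding arm, had 25.0, 22.7 and 24.3 CPM in the untreated libraries, 17.1, 14.2 and 17.1 CPM at 20 µM and 10.9, 11.8 and 10.5 CPM at 30 µM. These arm subunits changed by -0.51 ± 0.085 at 20 µM (adjusted p = 1.12e-05) and -1.26 ± 0.091 at 30 µM (adjusted p = 5.53e-14) for NDC80 and by -0.58 ± 0.081 at 20 µM (adjusted p = 6.41e-07) and -1.12 ± 0.085 at 30 µM (adjusted p = 1.95e-13) for NUF2. Every library at 30 µM held less of both than any at 20 µM. SPC24, of the pair that anchors the complex to the inner kinetochore, had 34.6, 34.3 and 34.9 CPM in the untreated libraries, 24.5, 24.8 and 23.6 CPM at 20 µM and 9.77, 10.4 and 11.8 CPM at 30 µM. SPC25, the other anchoring subunit, had 24.6, 24.9 and 22.1 CPM in the untreated libraries, 18.0, 16.2 and 16.2 CPM at 20 µM and 7.5, 9.82 and 8.38 CPM at 30 µM. Both of these also stepped down at each dose.

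At 20 µM the 4 subunits moved by nearly the same amount, between -0.58 and -0.50. At 30 µM the changes of the anchoring pair were larger than those of the arm pair, at -1.70 ± 0.073 for SPC24 (adjusted p = 5.10e-20) and -1.47 ± 0.091 for SPC25 (adjusted p = 1.01e-15). The summed level of SPC24 and SPC25 over that of NDC80 and NUF2, per kilobase, was 1.93 ± 0.0833 in the untreated libraries, 1.99 ± 0.187 at 20 µM and 1.47 ± 0.185 at 30 µM (SD, n = 3). The libraries at 30 µM lay below all others, and those at 20 µM overlapped the untreated ones.

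The MIS12 complex, which joins the inner network to KNL1 and NDC80, fell in 3 of 4 subunits at 20 µM and in 4 of 4 at 30 µM, by unequal amounts. DSN1 had 26.9, 25.2 and 25.5 CPM in the untreated libraries, 19.1, 18.2 and 20.3 CPM at 20 µM and 7.73, 8.13 and 8.42 CPM at 30 µM. It changed by -0.43 ± 0.073 at 20 µM (adjusted p = 1.44e-05) and -1.68 ± 0.081 at 30 µM (adjusted p = 1.34e-18), and its level at 30 µM was 3.19-fold lower than in untreated cells. MIS12, which gives the complex its name, had 24.5 ± 1.06 CPM untreated, 21.3 ± 1.19 CPM at 20 µM and 18.5 ± 2.01 CPM at 30 µM (SD, n = 3) and changed by -0.20 ± 0.075 at 20 µM (adjusted p = 0.0369) and -0.41 ± 0.077 at 30 µM (adjusted p = 2.13e-05). The ratio of DSN1 to MIS12 per kilobase was 1.22 ± 0.0481 in the untreated libraries, 1.04 ± 0.0595 at 20 µM and 0.511 ± 0.0770 at 30 µM, with no overlap between the 3 groups.

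The calls of MIS12 at 20 µM and between the doses were lost in several other fits. The fall of MIS12 at 20 µM was lost without control library 1, at -0.19 (adjusted p = 0.0944), without control library 3, at -0.18 (adjusted p = 0.126), without library 2 at 20 µM, at -0.16 (adjusted p = 0.155), and without library 3 at 20 µM, at -0.21 (adjusted p = 0.0698). Its difference between the doses, -0.21 ± 0.078 (adjusted p = 0.0211), became -0.17 (adjusted p = 0.0947) without library 1 at 20 µM and -0.12 (adjusted p = 0.214) without library 3 at 30 µM. The call at 20 µM was also lost with upper-quartile factors (adjusted p = 0.0549) and in DESeq2 (adjusted p = 0.0793), and that between the doses in DESeq2 (adjusted p = 0.0696). NSL1 changed by -0.26 ± 0.055 at 20 µM (adjusted p = 0.000237) and -1.02 ± 0.058 at 30 µM (adjusted p = 7.85e-17) and had no overlapping groups.

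PMF1, a subunit that also shares exons with the read-through gene PMF1-BGLAP, had 29.9, 29.6 and 25.7 CPM in the untreated libraries, 24.9, 28.9 and 23.5 CPM at 20 µM and 22.0, 21.6 and 24.2 CPM at 30 µM. Its libraries at 20 µM overlapped the untreated ones, and it changed by -0.14 ± 0.075 at 20 µM (adjusted p = 0.160) and -0.33 ± 0.076 at 30 µM (adjusted p = 0.000422). Without control library 3 the change at 20 µM was -0.21 (adjusted p = 0.0476), and without library 2 at 20 µM it was -0.23 (adjusted p = 0.0236). Its difference between the doses, -0.19 ± 0.077 (adjusted p = 0.0377), became -0.10 (adjusted p = 0.306) without library 2 at 20 µM, -0.17 (adjusted p = 0.122) without library 1 at 30 µM and -0.16 (adjusted p = 0.147) without library 2 at 30 µM. It was lost as well with median-ratio factors (adjusted p = 0.0645), in DESeq2 (adjusted p = 0.111) and in limma voom (adjusted p = 0.0765). The read-through gene held 0 counts in all 9 libraries, but 23.3% of the exon bases of PMF1 are shared with it. How reads in shared exons were counted is not stated, so the 0 does not settle whether it was transcribed.

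KNL1, the scaffold on which checkpoint proteins assemble, and its partner ZWINT fell at both doses. ZWINT (chr10:56357228-56361275), which was the highest of the members per kilobase of exon in untreated cells, had 78.3, 74.5 and 75.2 CPM in the untreated libraries, 47.8, 47.1 and 52.9 CPM at 20 µM and 22.3, 20.0 and 21.9 CPM at 30 µM. Its level at 30 µM was 3.55-fold lower than in untreated cells, and its changes were -0.63 ± 0.052 at 20 µM (adjusted p = 1.60e-11) and -1.83 ± 0.057 at 30 µM (adjusted p = 8.67e-24). KNL1 had 68.0, 65.1 and 70.4 CPM in the untreated libraries, 54.9, 53.5 and 53.8 CPM at 20 µM and 33.1, 32.2 and 34.6 CPM at 30 µM. It changed by -0.33 ± 0.048 at 20 µM (adjusted p = 1.45e-06) and -1.03 ± 0.051 at 30 µM (adjusted p = 2.14e-18), and neither gene had overlapping groups.

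The outer corona, a fibrous layer that captures microtubules, fell in all 3 members at each dose. CENPF, a large protein of this layer and of the nuclear matrix, had 298, 278 and 296 CPM in the untreated libraries, 185, 175 and 193 CPM at 20 µM and 111, 115 and 113 CPM at 30 µM. It was the member with the most counts, and its changes were -0.66 ± 0.038 at 20 µM (adjusted p = 3.37e-15) and -1.37 ± 0.039 at 30 µM (adjusted p = 8.56e-25). CENPE, the kinesin that moves chromosomes towards the spindle equator, changed by -0.58 ± 0.056 at 20 µM (adjusted p = 4.87e-10) and -1.10 ± 0.059 at 30 µM (adjusted p = 2.06e-17). ZW10, of the complex that brings dynein and the MAD proteins to kinetochores, had 26.6, 30.8 and 29.4 CPM in the untreated libraries, 25.3, 24.0 and 24.7 CPM at 20 µM and 20.8, 19.2 and 20.2 CPM at 30 µM. Its changes were smaller, at -0.23 ± 0.066 at 20 µM (adjusted p = 0.00680) and -0.53 ± 0.068 at 30 µM (adjusted p = 3.66e-08), and the call at 20 µM was lost without control library 2, at -0.18 (adjusted p = 0.0646).

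Of the 6 spindle checkpoint genes, 5 fell at 20 µM and 5 at 30 µM, with MAD1L1 not past the test at 20 µM and BUB3 not past it at 30 µM. BUB1, a kinase that marks centromeric chromatin and recruits other checkpoint proteins, had 101, 103 and 97.9 CPM in the untreated libraries, 62.4, 60.1 and 64.8 CPM at 20 µM and 44.3, 40.8 and 37.7 CPM at 30 µM. BUB1B, which encodes BUBR1, the subunit of the checkpoint complex that binds CDC20, had 71.4, 65.9 and 67.3 CPM in the untreated libraries, 43.9, 43.0 and 43.1 CPM at 20 µM and 23.6, 25.9 and 27.7 CPM at 30 µM. Neither had overlapping groups, and BUB1 changed by -0.69 ± 0.049 at 20 µM (adjusted p = 4.23e-13) and -1.30 ± 0.051 at 30 µM (adjusted p = 4.46e-21) and BUB1B by -0.66 ± 0.054 at 20 µM (adjusted p = 1.06e-11) and -1.41 ± 0.057 at 30 µM (adjusted p = 9.30e-21). TTK, the kinase that starts the signal at KNL1, had 35.9, 30.4 and 38.5 CPM in the untreated libraries, 25.8, 21.3 and 20.7 CPM at 20 µM and 13.6, 12.3 and 13.2 CPM at 30 µM. TTK changed by -0.63 ± 0.086 at 20 µM (adjusted p = 3.58e-06) and -1.43 ± 0.092 at 30 µM (adjusted p = 3.69e-12), also without overlap.

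MAD2L1, the protein that closes around CDC20 to stop the anaphase-promoting complex, had 50.2, 54.0 and 55.6 CPM in the untreated libraries, 33.9, 32.9 and 34.9 CPM at 20 µM and 23.5, 24.2 and 23.5 CPM at 30 µM. It changed by -0.65 ± 0.055 at 20 µM (adjusted p = 2.27e-11) and -1.17 ± 0.058 at 30 µM (adjusted p = 2.27e-18), without overlap between the groups. MAD1L1, which holds MAD2 at unattached kinetochores, was the lowest member per kilobase in untreated cells and had 3.44, 3.2 and 2.98 CPM in the untreated libraries, 3.36, 2.30 and 1.96 CPM at 20 µM and 1.71, 2.47 and 2.39 CPM at 30 µM. Library 1 at 20 µM stood within the untreated range, and the change was -0.33 ± 0.20 at 20 µM (adjusted p = 0.228) and -0.54 ± 0.21 at 30 µM (adjusted p = 0.0256).

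The calls of MAD1L1 changed in several other fits. The fall at 30 µM was lost without control library 1, at -0.49 (adjusted p = 0.0802), without control library 2, at -0.54 (adjusted p = 0.0519), and without library 1 at 30 µM, at -0.40 (adjusted p = 0.134), and in DESeq2 (adjusted p = 0.0602). At 20 µM it passed without library 1 of that dose, at -0.59 (adjusted p = 0.0402). Between the doses the difference was -0.21 ± 0.21 (adjusted p = 0.429), and 0.046 (adjusted p = 0.889) without library 1 at 20 µM.

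BUB3 (chr10:123154277-123170467), the adaptor that docks BUB1 and BUBR1 on KNL1, followed another course. It had 159.6, 161 and 168 CPM in the untreated libraries, 140.2, 138 and 141 CPM at 20 µM and 152, 157 and 159.6 CPM at 30 µM. At 20 µM it fell with no overlap (-0.22 ± 0.036, adjusted p = 9.24e-06), whereas at 30 µM its libraries overlapped the untreated ones (-0.060 ± 0.036, adjusted p = 0.154). It was higher at 30 µM than at 20 µM by 0.16 ± 0.036 (adjusted p = 0.000323), but with library size alone as the scaling that difference was -0.033 (adjusted p = 0.450). Under that scaling BUB3 was called lower at 30 µM than in untreated cells (-0.27, adjusted p = 6.69e-08), and so was CENPT (-0.26, adjusted p = 0.000190). BUB3 was also called lower with upper-quartile factors (-0.12, adjusted p = 0.00416). Library size alone moved the median of all genes at 30 µM to -0.25, against -0.036 with TMM factors.

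BUB1 and BUB1B changed relative to their adaptor BUB3 within the same libraries. The ratio of BUB1 to BUB3 per kilobase was 0.850 ± 0.0401 in the untreated libraries, 0.614 ± 0.0165 at 20 µM and 0.361 ± 0.0379 at 30 µM (SD, n = 3). The ratio of BUB1B to BUB3 was 0.778 ± 0.0459 in the untreated libraries, 0.575 ± 0.00733 at 20 µM and 0.305 ± 0.0173 at 30 µM. In both ratios the 3 groups did not overlap, and these ratios do not depend on the scaling between libraries.

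**Figure D3:**
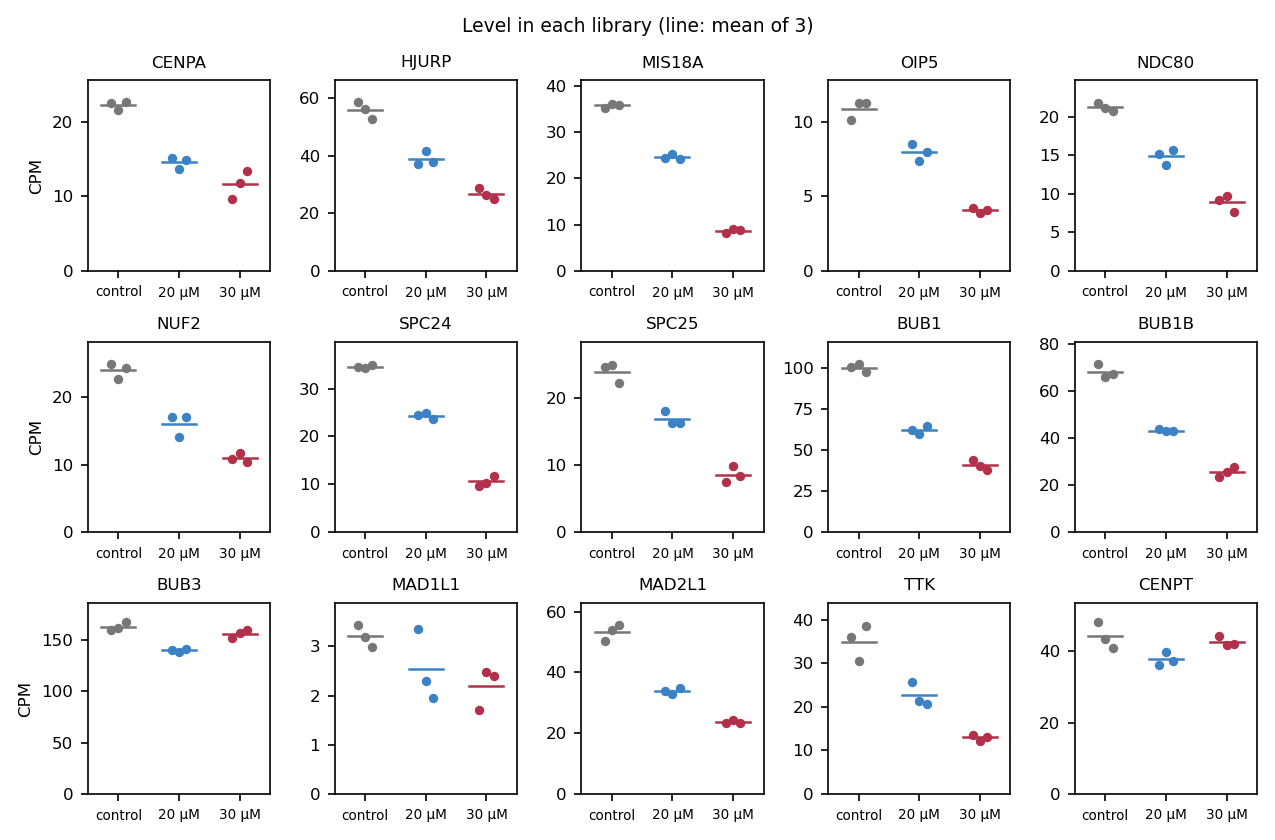
Level in CPM (y axis, from 0) of 15 genes in each of the 9 libraries (points), by group (x axis: untreated, 20 µM, 30 µM), with a line at the mean of 3. In most panels the points step down with dose, while in BUB3 and CENPT the points at 30 µM stand above those at 20 µM, and in MAD1L1 1 point at 20 µM stands among the untreated ones.

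**Figure D4:**
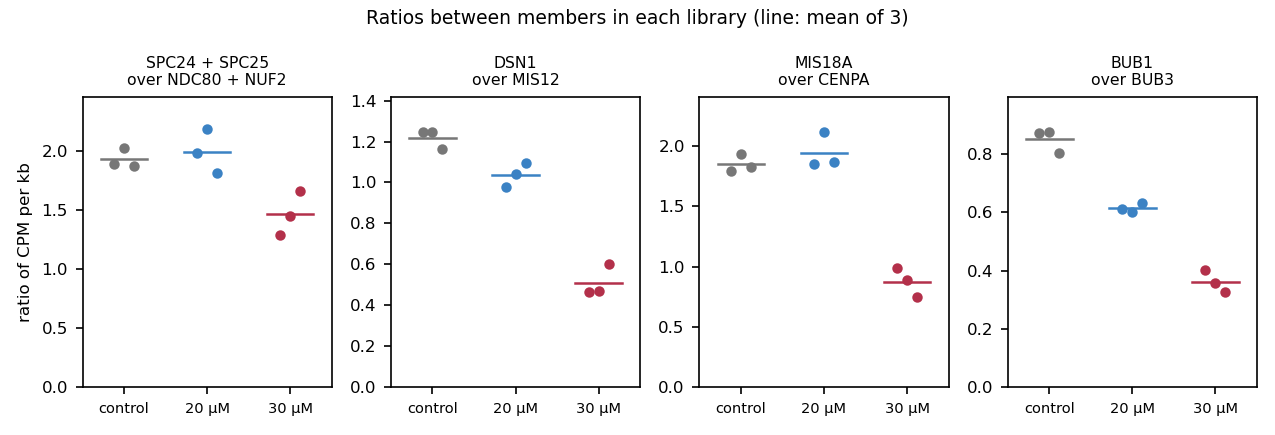
Ratio of levels per kilobase of exon (y axis, from 0) between members of 1 complex or pathway in each library (points), by group (x axis), with a line at the mean of 3. The ratio of DSN1 to MIS12 stood at 0.511 at 30 µM, below all other libraries, and the ratio of BUB1 to BUB3 stepped down at each dose.

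The SKA complex, which keeps kinetochores on the ends of shrinking microtubules, fell in all 3 subunits at each dose. SKA3 had 23.3, 23.5 and 23.5 CPM in the untreated libraries, 12.5, 14.0 and 14.1 CPM at 20 µM and 7.13, 7.67 and 7.85 CPM at 30 µM. It showed the largest fall of the 41 genes at 20 µM, -0.79 ± 0.080 (adjusted p = 1.03e-09), and a change of -1.63 ± 0.086 at 30 µM (adjusted p = 1.48e-17). SKA2 had 43.7, 43.5 and 46.8 CPM in the untreated libraries, 33.3, 33.1 and 33.3 CPM at 20 µM and 25.5, 23.1 and 23.3 CPM at 30 µM. Its changes were the smallest of the complex, at -0.42 ± 0.057 at 20 µM (adjusted p = 2.81e-07) and -0.90 ± 0.059 at 30 µM (adjusted p = 4.70e-15). SKA1 lay between them at both doses, with changes of -0.46 ± 0.063 at 20 µM (adjusted p = 3.83e-07) and -1.10 ± 0.067 at 30 µM (adjusted p = 5.87e-16).

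The shugoshins, which shield centromeric cohesin, fell together. SGO1 had 23.7, 24.6 and 26.4 CPM in the untreated libraries, 16.7, 15.1 and 15.6 CPM at 20 µM and 8.61, 9.16 and 9.37 CPM at 30 µM, with changes of -0.65 ± 0.077 at 20 µM (adjusted p = 2.29e-08) and -1.46 ± 0.082 at 30 µM (adjusted p = 8.66e-17). SGO2 had 33.0, 33.8 and 35.8 CPM in the untreated libraries, 23.3, 21.4 and 22.4 CPM at 20 µM and 13.4, 14.4 and 13.4 CPM at 30 µM, with changes of -0.61 ± 0.065 at 20 µM (adjusted p = 3.16e-09) and -1.31 ± 0.069 at 30 µM (adjusted p = 1.27e-17). Neither gene had overlapping groups, and 17.7% of the exon bases of SGO1 overlap SGO1-AS1 on the opposite strand, which held 41 counts in all.

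The order of levels within the module changed with dose. In untreated cells the highest members per kilobase of exon were ZWINT at 32.0 ± 0.843 CPM per kilobase, CENPF at 24.9 ± 0.931, MIS18A at 20.8 ± 0.272 and BUB3 at 19.6 ± 0.512 (SD, n = 3). No libraries of neighbours among these 4 overlapped, whereas BUB1 and CENPW, next in order at 16.7 ± 0.393 and 16.0 ± 1.31, did. At 20 µM ZWINT was still highest, at 20.7 ± 1.31 CPM per kilobase, with BUB3 at 16.8 ± 0.193 after it. At 30 µM BUB3 was highest at 18.8 ± 0.462 CPM per kilobase, followed by CENPN at 11.2 ± 0.440, CENPF at 9.66 ± 0.166 and CENPO at 9.13 ± 0.152. ZWINT stood at 9.0 ± 0.516 CPM per kilobase there, overlapping CENPO, and MIS18A at 5.06 ± 0.257. The lowest members in untreated cells were MAD1L1 at 0.444 ± 0.0319 and CENPP at 0.660 ± 0.0258 CPM per kilobase, and at 30 µM their libraries overlapped, with CENPP lowest by mean.

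Other genes that act on the same structures were read from 5 lists, counted against the shares of all genes given above. Of 10 further centromere and kinetochore genes, 7 fell at 20 µM and 0 rose, and at 30 µM 8 fell and 1 rose. Their largest changes at 30 µM were those of KNTC1 and SPDL1, which act with ZW10, at -1.55 and -1.49, and of CENPS at -1.11. CENPS had only 8 to 35 counts in a library, and its change was uncertain (SE 0.38, adjusted p = 0.0118). The list's median at 30 µM was -0.86. Its member that rose was MAD2L1BP, which acts in silencing the checkpoint, at 0.27 ± 0.076 (adjusted p = 0.00271), and CENPB, which binds centromeric satellite DNA, had 0.082 ± 0.046 (adjusted p = 0.121).

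All 4 genes of the chromosomal passenger complex, which corrects faulty attachments, fell at each dose, with a median of -1.35 at 30 µM. CDCA8, BIRC5 and AURKB, the kinase of the complex, had changes of -1.44, -1.37 and -1.33 at 30 µM. Of 16 genes of the anaphase-promoting complex and its activators, the target of the checkpoint, 7 fell and 1 rose at 20 µM, and 10 fell and 2 rose at 30 µM. Their median at 30 µM was -0.29, and the activator CDC20, at -1.44, had the largest change, before ANAPC4 at -0.64 and CDC23 at -0.57.

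Of 11 cohesin and separase genes, 10 fell and 0 rose at 20 µM, and 7 fell and 2 rose at 30 µM, with a median of -0.47 at 30 µM. The largest changes at 30 µM were -1.63 in ESPL1, which encodes separase, -1.29 in CDCA5, which encodes sororin, and -0.69 in PTTG1, which encodes securin. Of 11 genes of the MuvB complex and its partners, which are known to bind the cell cycle homology region, 8 fell and 0 rose at 20 µM, and 9 fell and 0 rose at 30 µM. The largest changes at 30 µM were those of MYBL2, at -1.41, RBL1, at -1.31, and LIN9, at -1.30. The list's median was -0.79.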

How the data were processed

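RNA sequencing of 9 HepG2 libraries gave raw counts per gene, deposited as separate files, which the authors made with FastQC, STAR 2.7.10a and HTSeq on hg38, per the submitters' processing notes. The annotation release and strand setting were not given in the sources used here. Genes with an opposite-strand neighbour are therefore uncertain. The labels call the molecule polyA RNA, whereas the protocol describes ribosomal RNA depletion. The series text names a lower dose, not analysed here, and a longer incubation that the labels do not tie to these libraries. The 5 HTSeq total lines of each file were left out; 40.6% to 44.0% of records fell in no single gene.

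Genes were filtered with filterByExpr (99.9% of counts kept), scaled with TMM factors and fitted in edgeR 4.0.16 (robust quasi-likelihood, 1 mean per group over 9 libraries, R 4.3.3), with Benjamini-Hochberg adjustment over 17623 genes. Levels per kilobase use exon unions of GENCODE 29. Libraries of a group differed beyond counting noise (chi-square per gene 2.10 to 7.94). The fit was tested on simulated data with 200 genes changed, by the same amount at both doses. Far more genes changed in these libraries, so the simulation did not test the scaling. The members, complexes and lists were chosen with earlier results of these data known. Library values were given for all CENP-A loading, NDC80 and checkpoint genes, and for the largest and smallest change at 30 µM in each complex; other lists give up to 3 genes with the largest change. Values of MIS12, MAD2L1BP, CENPB, PDGFRB, LYZ, VWF, PECAM1, CDH5 and of single remaining members were added after they were seen.

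Alternatives were median-ratio or upper-quartile factors, library size alone, DESeq2 1.42.0, limma 3.58.1 voom, no low-count filter or a mean of at least 50 counts, a fit of the compared groups, a replicate block, a minimum change of 1 log2 unit, and fits without 1 library or without 3.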

Additional observations from a re-analysis of the deposited data

How the results depend on the processing

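Of 1968 recomputed changes of single members, 1918 kept their direction and their side of the threshold, 33 lost the call, 11 gained one and 6 turned sign. With library size alone, the difference between 30 µM and 20 µM turned to -0.020 for CENPT and -0.033 for BUB3, and this scaling moved the median of all genes to -0.22, against -0.029 with TMM factors. Without the 3 libraries that deviated together, CENPT at 30 µM against untreated cells turned to 0.021. With each library left out in turn, CENPT at 30 µM against untreated cells ranged between -0.11 and 0.014, MAD1L1 between the doses from -0.36 to 0.046, and CENPN between the doses from -0.047 to 0.0092. None of these 3 had passed the test.

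With 1 library left out, the number of members lower was 35 to 38 at 20 µM, 38 to 39 at 30 µM and 35 to 37 at 30 µM against 20 µM. Of the 18052 to 18223 genes tested in those fits, 2603 to 2871 fell at 20 µM and 5132 to 5239 at 30 µM. Between the doses 4640 to 4811 genes were lower and 4636 to 4786 higher. The number of members higher at 30 µM than at 20 µM was 1 to 2 with 1 library left out. It was 1 with upper-quartile factors and 0 with library size alone, where 4108 and 3029 of 17623 genes tested were higher. A change of at least 1 log2 unit was met by 0 members at 20 µM, 27 at 30 µM and 6 lower and 0 higher at 30 µM against 20 µM. Of 17623 genes tested, 64 fell and 245 rose by that much at 20 µM, and 1441 fell and 1381 rose at 30 µM. Between the doses 1134 genes were lower and 914 higher by that much. Libraries of the same number in different groups correlated by -0.20 to 0.35, and those of other numbers by -0.26 to 0.34. Whether the numbers pair libraries is not stated, and these overlapping ranges do not settle it. With a replicate block, 36 members fell at 20 µM, 39 at 30 µM and 37 fell and 2 rose at 30 µM against 20 µM, as without it. In that fit 2955 of 17623 genes tested fell at 20 µM and 5480 at 30 µM. Between the doses 5034 of them were lower and 4921 higher. Depth limits MAD1L1 and CENPP, the members with the fewest counts.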
